A study of Mus musculus with 12 samples.

Results

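The CpG cytosines described here were those whose methylation level differed most between single samples of mouse oral tissue. They were selected on their measured range: autosomal positions with at least 10 reads in all 12 samples, at which the highest minus the lowest percentage of methylated reads was 60 points or more. Of 37218 positions with that coverage, 1322 (3.55%) met the rule. The range is therefore the reason for their choice and is given as a description, with no test.

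The samples were soft tissue of the oral cavity of female B6C3F1/J mice, 8 weeks old at the start, an F1 hybrid that carries 1 genome from each of 2 inbred parents. The 12 samples formed 4 groups of 3. The DMSO group received the vehicle, and the DBP group received the carcinogen dibenzo[a,l]pyrene, one of the polycyclic aromatic hydrocarbons, applied in the mouth over 5 weeks with 3 doses of 24 nmol each week. The third group received DBP with an unnamed chemopreventive agent (DBP_agent), and the fourth received DBP with the chemopreventive agent BR extract (DBP_BR_extract). All tissue was taken 48 h after the last dose, and cheek lining, floor of the mouth and tissue of the hard palate were pooled, so that each sample was a mixture of epithelium, connective tissue, muscle and other cells. The labels do not say whether each sample was 1 mouse, and spread between samples is the only error that could be measured.

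Methylation was measured by enhanced reduced representation bisulfite sequencing (ERRBS). DNA is cut at CCGG by MspI, fragments are size-selected, and bisulfite turns unmethylated cytosine into uracil, which is read as T, while methylated cytosine stays C. Each read starts at a cut and covers about 50 bases, so all CpGs on a fragment end are seen on the same set of reads. In mammals most CpGs outside CpG-rich promoters are methylated, while those in CpG-rich promoters are mostly not. At imprinted genes 1 parental copy is methylated and the other is not, which gives intermediate levels in every tissue where the imprint is kept. A difference of C against T between the parental strains is also read as an unmethylated cytosine, and such differences were not analysed here.

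The reference sequences of 6 of the fragment ends are shown first, because they hold the largest groups of selected cytosines or the widest differences between samples. They are mm9 bases in the direction of the read, 5′ to 3′, and begin with the cgg that MspI leaves. Capitals mark each CpG whose cytosine on this strand met the rule. The first is in the promoter of Igf2r on the minus strand at chr17:12962308-12962367, the second in an exon of Il12rb1 at chr8:73344488-73344547 on the plus strand, and the third in an exon of Srcin1 at chr11:97396312-97396371 on the minus strand. The fourth lies in an exon of Adcy6 at chr15:98424867-98424926 on the minus strand, the fifth in the promoter of Fam179a at chr17:72036295-72036354 on the plus strand, and the last between genes with Slc38a2 as the nearest start, at chr15:96617373-96617432 on the plus strand.
Igf2r: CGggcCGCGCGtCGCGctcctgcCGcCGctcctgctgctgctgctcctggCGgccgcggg
Il12rb1: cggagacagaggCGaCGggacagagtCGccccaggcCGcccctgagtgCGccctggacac
Srcin1: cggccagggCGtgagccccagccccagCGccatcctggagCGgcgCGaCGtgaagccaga
Adcy6: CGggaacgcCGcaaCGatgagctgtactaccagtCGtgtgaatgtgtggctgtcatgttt
Fam179a: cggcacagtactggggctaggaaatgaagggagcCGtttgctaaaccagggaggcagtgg
Slc38a2: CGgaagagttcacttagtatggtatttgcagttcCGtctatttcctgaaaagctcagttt

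Sequencing depth differed with the group. The DMSO and DBP samples held 3287367 to 7974299 CpG calls, the DBP_agent samples 16908728 to 39615620 and the DBP_BR_extract samples 17712547 to 78889043. DBP_BR_extract 1 was the deepest library overall but had only 4.82% of its calls at the positions covered in all 12 samples, against 16.5 to 23.1% in the other samples, and its median depth at the selected cytosines was 20 reads. Over positions with a mean level of 20 to 80%, called intermediate below, its levels correlated with those of another sample at r = 0.575 on average, while samples of 1 group correlated at 0.676 and samples of different groups at 0.671. In the rest the median depth there was 15 to 27 reads in the DMSO and DBP samples and 55 to 95 reads in the agent and BR extract samples. Over the same intermediate positions the squared deviation of a sample from the mean of the others was 1.52 to 2.16 times what read counting alone gives in the DMSO and DBP samples, and 4.99 to 6.91 times in the other 6. Read counting alone gives less in a deeper sample, so the same spread between samples makes a larger ratio there. The ratio is therefore not a measure of spread that can be compared between depths. Percentages of single samples have 95% Wilson intervals, which cover counting error only, because PCR copies of 1 molecule are counted as separate reads.

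The median range over the selected cytosines was 67.1 points, and over all covered positions it was 15 points. At 67 cytosines (5.07%) the range was 90 points or more, and at 21 it was the full 100 points, from a sample without a methylated read to a sample without an unmethylated one. Just inside the limit were cytosines in Vps13c and Pecam1, both with 13.3% in the lowest and 73.3% in the highest sample, and just outside were cytosines of Abcb1b with 28.6 and 88.5% and of Polr2c with 2.53 and 62.5%. The Wilson intervals of the lowest and the highest sample did not overlap at any of the 1322 cytosines, with a median gap of 33.5 points between them and a smallest gap of 1.32. The 2 samples compared were picked as the extremes out of 12. A range of 60 points on at least 10 reads leaves little room for overlap, so the gaps mostly follow from the rule. The mean level was intermediate at 1182 of them (89.4%), against 24% of all positions, a consequence of the rule, since a mean near 0 or 100% leaves little room for a range of 60 points.

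The extremes came unequally from the samples. DBP_BR_extract 1 was the lowest or the highest sample at 702 cytosines (53.1%), DBP_agent 3 at 371 (28.1%) and DBP_BR_extract 2 at 333 (25.2%). DBP_agent 1, the library with the most reads at these positions, was an extreme at 51 (3.86%), the fewest. DBP_BR_extract 1 was the highest sample at 358 and the lowest at 344, and DBP_agent 3 at 177 and 194, while DBP_BR_extract 2 was more often the lowest (200) than the highest (133). With DBP_BR_extract 1 left out, 759 positions met the rule, and without any other single sample 1086 to 1303 did. Values of exactly 0 or 100% made up 19.4% of the levels of DBP_BR_extract 1 at the selected cytosines, against 1.21 to 8.55% in the other samples. Choosing by range favours such values in the sample that is most often an extreme. Over all intermediate positions they made up 6.64% of its levels, against 0.0448 to 1.79% in the other samples. The mean level over the selected cytosines was nevertheless alike in all 12 samples, between 47.5 and 53.5%. At most of these cytosines the range rested on 1 sample at each end, since the second highest minus the second lowest sample had a median of 38.7 points and reached 60 points at 52.

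**Figure D1:**
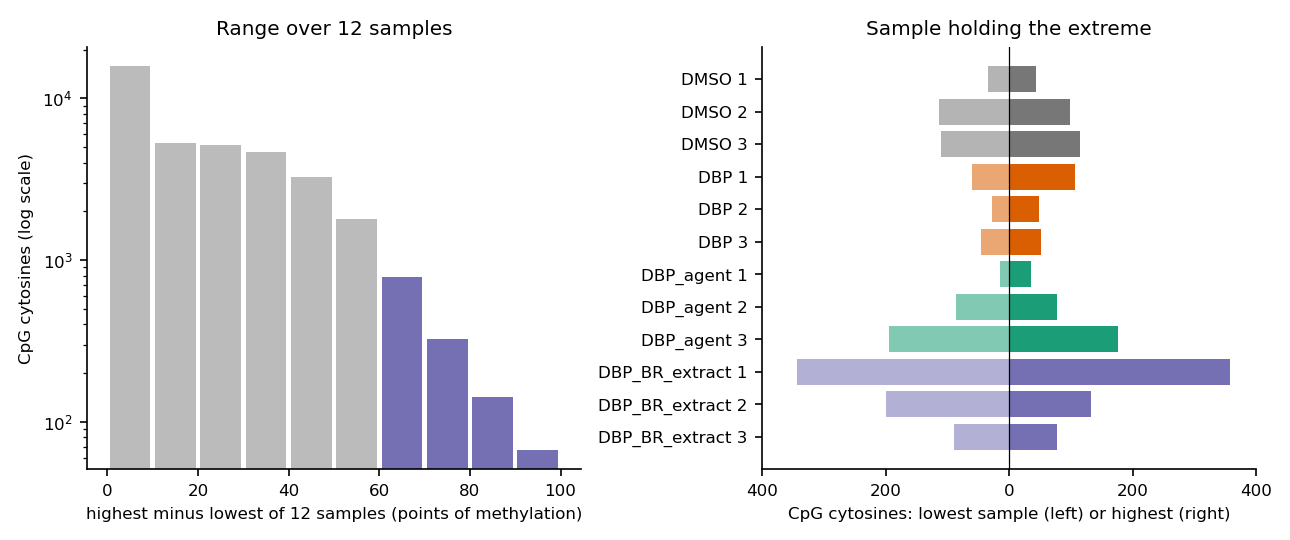
Left, the number of covered CpG cytosines (log scale) by the difference between the highest and the lowest of 12 samples in points of methylation, with ranges of 60 points or more in purple. Right, for the 1322 selected cytosines, how often each sample was the lowest (left, pale) or the highest (right, dark), coloured by group, where DBP_BR_extract 1 has the longest bars with 344 and 358.

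The cytosines with the widest gap between the Wilson intervals of the extreme samples were of 2 kinds, those where 1 sample left a common level and those where several levels were spread over the scale. Values below are in the order of replicates 1 to 3 of each group. In an intron of Sulf2, a sulfatase that trims heparan sulfate outside cells, the cytosine at chr2:165953908 read 0, 0 and 0% in DMSO, 0, 0 and 2.04% in DBP, 1.72, 0 and 1.63% in DBP_agent, and 100, 0 and 0.5% in DBP_BR_extract. All 16 reads of DBP_BR_extract 1 were methylated (95% interval 80.6 to 100%), while the other 11 samples lay at 2.04% or lower on 26 to 350 reads. Near Slc38a2, which encodes an amino acid transporter, the cytosine at chr15:96617407 had the opposite form. It read 78.4, 98.1 and 93.8% in DMSO, 83.3, 64.3 and 75% in DBP, 79.7, 94.4 and 0% in DBP_agent, and 91.7, 89.9 and 77.9% in DBP_BR_extract. DBP_agent 3, with none of 34 reads methylated (interval up to 10.2%), stood apart from samples that spanned 64.3 to 98.1%.

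The same form was seen upstream of Myl2, the regulatory light chain of slow and cardiac myosin, at chr5:122548388. The levels were 72.2, 100 and 91.7% in DMSO, 100, 100 and 100% in DBP, 76, 78.6 and 0% in DBP_agent and 100, 82 and 88.2% in DBP_BR_extract. DBP_agent 3 was again the low sample, with none of 18 reads methylated. In the exon of Adcy6, an adenylyl cyclase, the cytosine at chr15:98424926 also had its lowest level in that sample: it read 60.9, 80.8 and 77.8% in DMSO, 87.5, 91.7 and 53.8% in DBP, 92.8, 92.5 and 0% in DBP_agent and 93.8, 100 and 58.8% in DBP_BR_extract. Apart from DBP_agent 3 the samples spanned 53.8 to 100%.

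At other cytosines 2 samples of 1 group held both extremes. In the promoter of Fam179a, at chr17:72036329, the levels were 92, 61.1 and 92.9% in DMSO, 77.8, 52.4 and 55.2% in DBP, 78.4, 82.4 and 83.6% in DBP_agent and 41.7, 0 and 100% in DBP_BR_extract. The group with BR extract thus covered the whole scale, with 27 reads behind the 0% and 72 behind the 100%, while the DBP_agent samples lay within a few points of each other. A cytosine between genes with the imprinted Snrpn as the nearest start, at chr7:67063968, read 46.7, 58.3 and 66.7% in DMSO, 58.8, 69.2 and 79.3% in DBP, 73.8, 71.2 and 40.9% in DBP_agent and 94.3, 2.94 and 75% in DBP_BR_extract. Both extremes again lay in the BR extract group, with 87 reads in the highest sample and 34 in the lowest.

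In the promoter of Slc16a11, of the monocarboxylate transporter family, the cytosine at chr11:70029089 read 26.9, 23.8 and 16.7% in DMSO, 25, 33.3 and 38.2% in DBP, 57.3, 60.6 and 89.8% in DBP_agent and 33.3, 38.8 and 1.23% in DBP_BR_extract. Here the 3 DBP_agent samples lay above the other 9, and 72.7% of the variance was between groups. The cytosine at chr12:71781233, between genes with Frmd6 nearest, read 40.6, 48.9 and 70.8% in DMSO, 50.8, 47.1 and 50.9% in DBP, 34.9, 79 and 94.9% in DBP_agent and 26.4, 2.94 and 38.1% in DBP_BR_extract. No BR extract sample reached the lowest DMSO or DBP sample there, but the DBP_agent samples alone spanned 60 points.

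Near other transcription starts the widest gaps were in Abi2, Fam19a5 and Mex3c, beside those of Fam179a and Slc16a11. The cytosine 685 bp from the start of Abi2, a regulator of actin assembly, read 100% of 18 reads in DBP_BR_extract 1 and 6.71 to 33.3% in the other 11 samples. The one in the promoter of Fam19a5, which encodes a secreted protein, read 96% of 25 reads in DBP_BR_extract 1 and 3.45 to 33.9% in the rest. At both, 1 sample was high and the remaining samples formed a low band. Mex3c, an RNA-binding ubiquitin ligase, differed in form: its cytosine read 44.2, 100 and 44.4% in DMSO, 25, 54.1 and 35.5% in DBP, 32.2, 6.52 and 96.3% in DBP_agent and 53.7, 37.5 and 47.7% in DBP_BR_extract. Its second highest and second lowest samples were still 71.3 points apart.

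**Figure D2:**
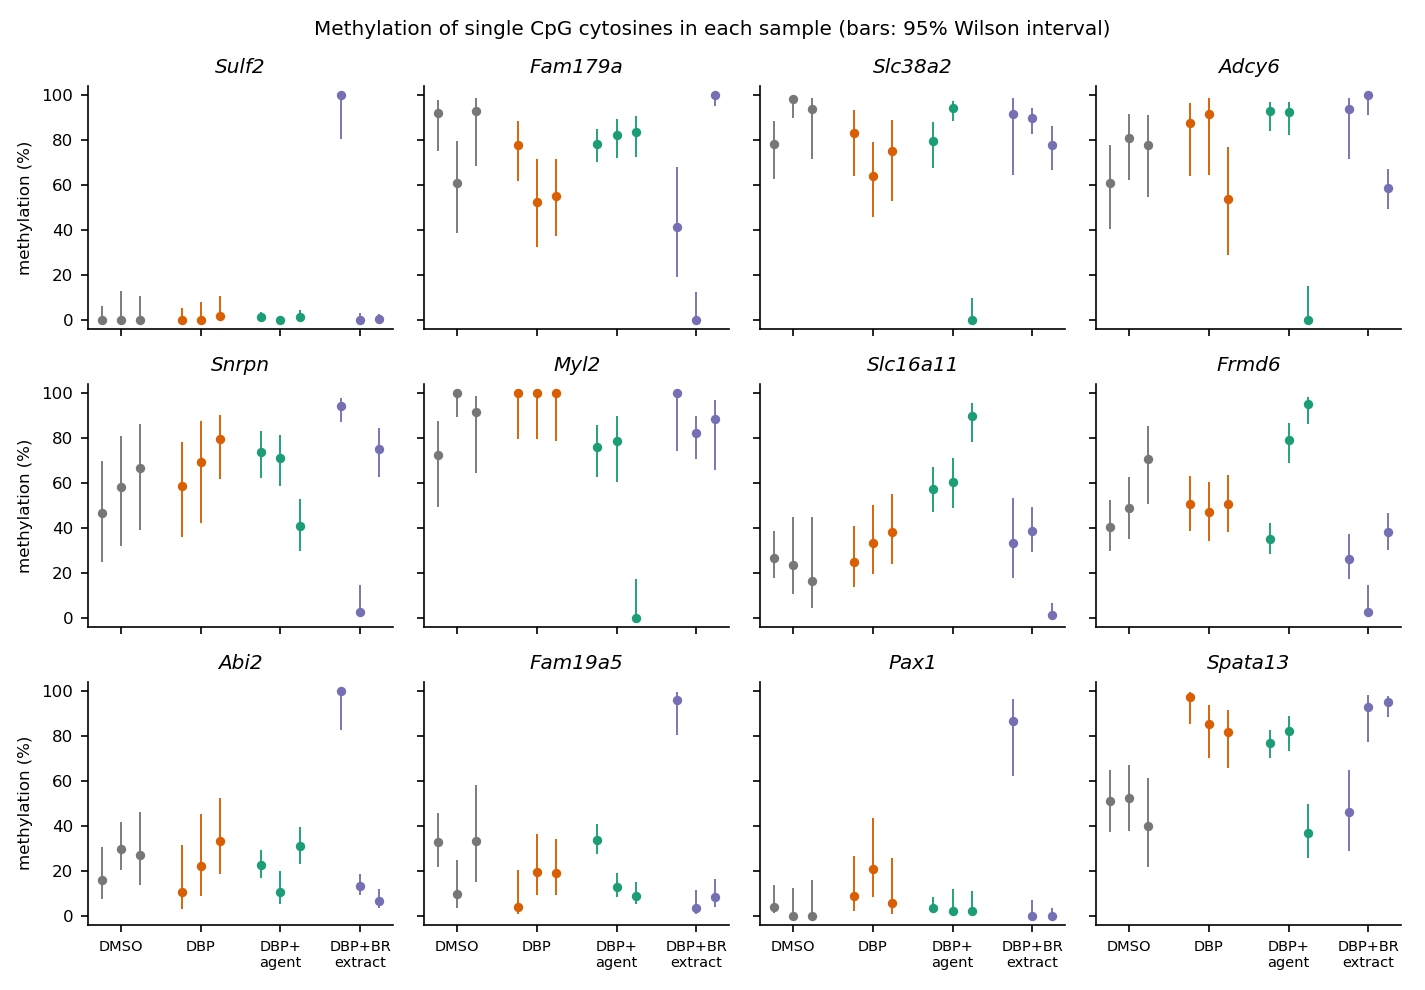
Methylation in percent of 12 selected CpG cytosines, named by gene, in each of the 12 samples, grouped and coloured by treatment. Points are single samples in the order of replicates and bars are 95% Wilson intervals. In Sulf2, Abi2, Fam19a5 and Pax1 DBP_BR_extract 1 lies alone at the top, and in Slc38a2, Adcy6 and Myl2 DBP_agent 3 lies alone at 0%.

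The 1322 cytosines fell into 1113 regions when members no more than 100 bp apart were joined. Of these regions 955 held a single member, 122 held 2 and 36 held 3 or more. They lay on as many fragment ends, 1113 of 12742. On the 919 of these ends with at least 2 covered cytosines, 761 had a single selected cytosine, so the wide range was mostly not shared by the whole stretch of a read.

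The largest region was in the promoter of Igf2r, an imprinted gene for the receptor of insulin-like growth factor 2 and of mannose 6-phosphate. All 9 covered cytosines on the fragment end met the rule, within 50 bp. Across them DBP_BR_extract 1 read 77.3 to 81.8% on 22 reads, and at 8 of the 9 cytosines the count of methylated reads was the same. DBP_agent 3 ran from 7.5 to 89.5% along the same bases, on 35 to 40 reads. The other samples were lower: DMSO 2 read 0 to 23.5%, DBP 1 23.4 to 52.5%, DBP_agent 1 9.88 to 22.5% and DBP_BR_extract 3 2.9 to 13.3%. The pairwise correlations between the 9 cytosines over the 12 samples had a median of 0.915 and a lowest value of 0.457.

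Il12rb1, a chain shared by the receptors of interleukin 12 and interleukin 23, held 5 selected cytosines of 6 in an exon. At the middle one, chr8:73344514, the levels were 4.84, 8.82 and 2.94% in DMSO, 5.66, 0 and 0% in DBP, 7.84, 4.4 and 27.3% in DBP_agent and 100, 0 and 7.69% in DBP_BR_extract. All 12 reads of DBP_BR_extract 1 were methylated at each of the 5 cytosines, while DBP_agent 3 ranged from 7.95 to 64.4% along them and the others stayed at 28.4% or lower. Srcin1, an inhibitor of Src kinase, had 5 of 6 with a different division of the samples. At chr11:97396331 it read 23.8, 18.8 and 0% in DMSO, 37.5, 36.4 and 26.7% in DBP, 16.3, 53.8 and 62.5% in DBP_agent and 0, 63 and 31.9% in DBP_BR_extract. In DMSO 3 and DBP_BR_extract 1 no read was methylated at any of these 5 cytosines, and DBP_agent 3 read 62.5% at all of them.

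In the Adcy6 exon the 4 members did not move together. DBP_BR_extract 1 fell along the read from 93.8 to 0%, DBP_agent 3 went the other way from 0 to 90.5%, and the correlations between the 4 cytosines had a median of 0.284 and reached down to -0.595. The Casz1 exon, of a zinc-finger transcription factor, had 4 members at low depth, and at chr4:148326819 it read 10, 100 and 60% in the DMSO samples, each on 10 reads. DMSO alone spanned 90 points there. Rp1l1, named for its role in photoreceptors, had 3 members in an exon at which DBP_BR_extract 1 was lowest, with 7.14 to 16.7% on 12 to 14 reads. The other 11 samples read 72.2 to 100% at the outer 2 cytosines, while at the middle one, chr14:64641348, DBP_BR_extract 2 read 39.3%, DBP_BR_extract 3 62.5% and the rest 66.7 to 100%. In Ccrl2, a chemokine receptor-like protein, DBP_BR_extract 1 read 92.3 to 100% on 13 reads at 4 cytosines.

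Extremes were divided among several samples at the last 3 of these regions. In Sds, serine dehydratase, DBP_BR_extract 3 read 18.6 to 28.9% at 4 cytosines and DMSO 2 read 72.7 to 100%. In an intron of BC057022 the same DBP_BR_extract 3 was the highest sample at 83.1 to 92.2%, and the lowest was DBP_BR_extract 2 at 2 of the 4 cytosines and DBP 3 and DBP_BR_extract 1 at 1 each. At 3 cytosines between genes near Ssx2ip, DBP_BR_extract 2 read 84.4 to 100% and DBP_BR_extract 1 0 to 30%.

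**Figure D3:**
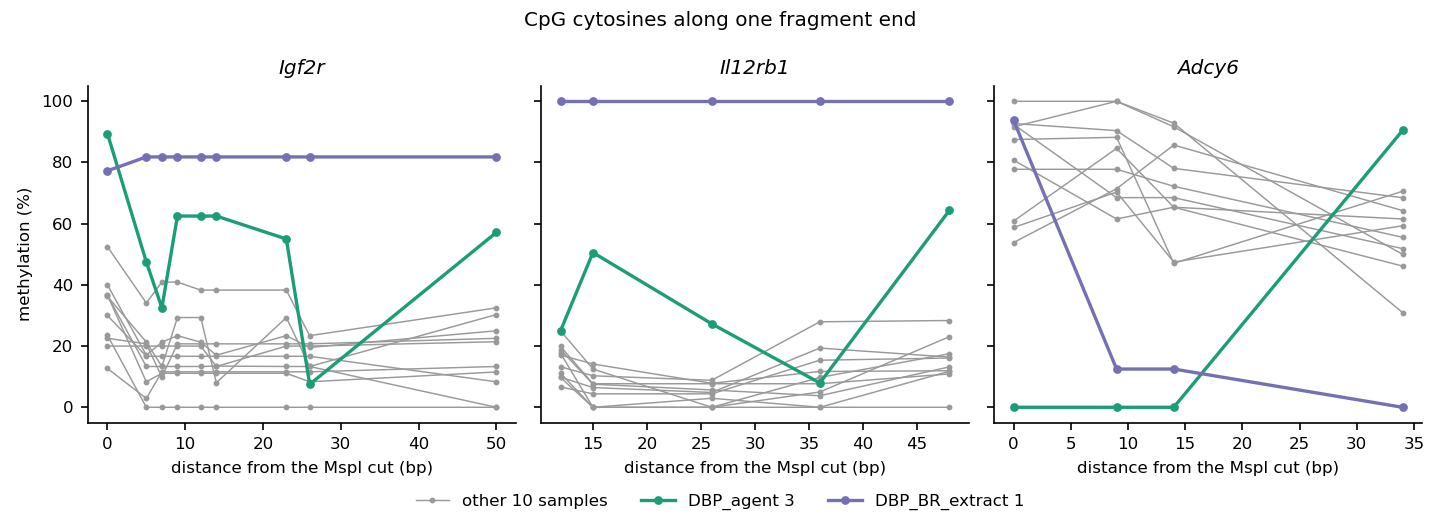
Methylation in percent of the selected CpG cytosines along 3 fragment ends against their distance in bp from the MspI cut, 1 line per sample. DBP_BR_extract 1 (purple) is high throughout Igf2r and Il12rb1 but falls from 93.8 to 0% in Adcy6, where DBP_agent 3 (green) goes from 0 to 90.5%.

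Neighbouring cytosines agreed in part where they lay on the same reads. For 1113 members another covered CpG lay within 100 bp, at a median distance of 15 bp, and the correlation with the nearest one over the 12 samples had a median of 0.40 (quartiles 0.027 and 0.69). For intermediate positions that were not selected the median was 0.25. In 1111 of these cases a neighbour was on the same fragment end. From the lowest to the highest sample of the member, that neighbour was higher at 722 (64.99%), lower at 225 and equal at 164, by a median of 14.7 points against 67.1 at the member itself. The neighbour also met the rule at 248 (22.3%), while at the 863 that did not the median difference was 6.99 points. The median correlation was 0.46 at 1 to 10 bp and 0.30 at 31 to 50 bp. Unselected intermediate positions had a neighbour on the same fragment end in 6147 cases. From their lowest to their highest sample that neighbour was higher at 3443 (56.0%), and it met the rule at 6.05%. Its median difference was 2.9 points, against 40.4 at the position itself.

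Where the neighbour was on another fragment end, and thus on other reads, 18 cases remained, at a median distance of 68.5 bp. Their median correlation was -0.0017 (quartiles -0.030 and 0.24). These neighbours were also farther away than those on the same end, so distance and fragment end cannot be told apart here. The difference between the member's extreme samples had a median of 0.25 points at those neighbours, with 9 in the same direction and 6 in the opposite one. For 181 unselected intermediate positions the median correlation with a neighbour on another fragment end was 0.10, at a median distance of 44 bp. The other end of the same MspI fragment was covered for 87 members. Averaged over its cytosines, it differed by a median of 0.0 points between the member's highest and lowest sample, in the same direction at 43 and in the opposite direction at 39. These correlations describe sites that share libraries and reads, and neighbours chosen around members are not independent of them.

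The opposite strand gave a second reading of the same CpG from other molecules, which had no part in choosing the member. At a CCGG site the 2 strands are read from the 2 fragments that adjoin at the cut, and 608 members (46%) were at such a site. Only 31 had at least 10 reads of the opposite strand in both extreme samples. At these the member differed by a median of 68.4 points between its highest and lowest sample, and the opposite strand by a median of 0.93 points (quartiles -13.9 and 13.6). The opposite strand was higher in the same sample at 16, lower at 13 and equal at 2, and at none did it differ by 60 points. Its Wilson intervals were apart in the same direction at 1 CpG and in the reverse direction at 5. The closest match was at Ldha, lactate dehydrogenase A, where the member read 25% in DBP_BR_extract 1 and 88.2% in DBP_agent 3, and the opposite strand 33.3 and 67.9%. In an intron of Rap1gap2 the strands were reversed: the member read 6.25% in DBP_agent 3 and 80% in DBP_BR_extract 1, and the opposite strand 83.3 and 16.7%. With DBP_BR_extract 1 left out of the extremes 12 CpGs remained, with a median of -10.2 points. The cause of the difference between the strands was not tested.

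Most of the spread lay within groups, as at other positions. Means of 3 samples take up a share of the variance even where the groups do not differ. At the selected cytosines the 4 group means accounted for a median of 24.98% of the variance over the 12 samples (quartiles 14.4 and 38.7%), beside 25.1% at unselected intermediate positions and 27.3% over all positions. The group means differed by a median of 23.7 points between the highest and lowest group, and at no member did they differ by 60 points. The highest and the lowest sample were in the same group at 246 members (18.6%), beside 17.7% of unselected intermediate positions. Within groups the median standard deviation of 3 samples was 12.4 points in DMSO, 10.97 in DBP, 14.9 in DBP_agent and 25.3 in DBP_BR_extract. A range of 60 points or more within 1 group occurred at 53 members in DMSO, 18 in DBP, 99 in DBP_agent and 445 in DBP_BR_extract. DBP_BR_extract 1, with a median of 20 reads there, was an extreme at more members than any other sample. The 2 groups with more spread also had more reads at the selected cytosines, except in DBP_BR_extract 1, whose 20 reads lay within the 15 to 27 of the DMSO and DBP samples. Over all intermediate positions they had a larger ratio to read counting, which itself grows with depth. These differences cannot be told apart from the treatment here. At unselected intermediate positions the median standard deviation was 10.03 points in DMSO, 9.01 in DBP, 10.3 in DBP_agent and 11.5 in DBP_BR_extract. The order of the groups was thus the same there, with smaller differences. Over all positions, most of them not intermediate, it was 3.1 points in DMSO, 2.96 in DBP, 2.62 in DBP_agent and 2.99 in DBP_BR_extract, without that order.

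Positions with a wide range in 6 of the samples had one in the other 6 somewhat more often than other intermediate positions. Over the 6 DMSO and DBP samples alone, 158 positions ranged by 60 points or more. In the other 6 samples, 24 of these (15.2%) also did, beside 7.36% of 8862 remaining positions whose mean over the DMSO and DBP samples was 20 to 80%. The median range of the 158 in the other 6 samples was 41.9 points against 33.8 at the remaining positions. With DBP_BR_extract 1 left out, the shares were 11.4 and 3.19%. In the reverse order, 864 positions were wide over the 6 agent and BR extract samples, and the same 24, or 2.78% of them, were wide in DMSO and DBP, beside 1.36% of other intermediate positions. Positions on 1 fragment end share reads, and these shares are given as a description. The positions compared were not matched for depth, and wide ranges were more frequent at low depth. Whether the same positions vary again apart from depth was not tested.

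The DBP and DMSO groups were compared by logistic regression of methylated and unmethylated reads, fitted at all 37218 positions, with q < 0.01 by Benjamini-Hochberg and a difference of pooled percentages above 25 points. Of all positions 11 were called, or 0.0296%, and of the members 4 (0.303%). The members' share cannot be read as independent of their choice, because the DMSO and DBP values are part of the range. All 4 were higher in the samples labelled DBP, on 4 fragment ends, and at each the 3 samples labelled DBP lay above the 3 labelled DMSO. A complete separation of these 2 groups was seen at 137 members (10.4%) in either direction, beside 5.5% of all positions and 9.86% of unselected intermediate ones, so it was about as frequent as at other positions of that level.

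The called cytosine with the smallest q was in an intron of Spata13 at chr14:61342798. It read 51.1, 52.5 and 40% in DMSO and 97.1, 85.3 and 81.8% in DBP, a mean of 47.9% ± 6.84 (SD, n = 3) against 88.1% ± 7.99 (SD, n = 3), and the DBP_agent and DBP_BR_extract samples read 76.7, 82.2 and 36.8% and 46.2, 92.9 and 94.8%. The q-value was 8.94e-06 by logistic regression for a pooled difference of 38.6 points. The agent and BR extract samples were on both sides, some near DMSO and some near DBP. The cytosine at chr11:116317983, between genes near Qrich2, read 42.9, 33.3 and 68.8% in DMSO and 86.7, 72 and 100% in DBP, with a q-value of 0.00339 by logistic regression.

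In the promoter of Ermap, an erythroid membrane protein, the cytosine at chr4:118863455 read 48, 0 and 63.6% in DMSO and 86.4, 88.9 and 76.5% in DBP, with a q-value of 0.00601 by logistic regression. All 6 agent and BR extract samples read 71 to 100%, so the 3 DMSO samples were below the other 9. At the start of Efemp2, a fibulin of elastic fibres, the cytosine at chr19:5475315 read 9.09, 28 and 20% in DMSO and 34.8, 40.6 and 60% in DBP, with a q-value of 0.00888 by logistic regression. Next in order was a cytosine in an intron of Ccdc88c, which missed the threshold with a q-value of 0.0103 by logistic regression and a pooled difference of 32.4 points. None of the 4 was called by edgeR's quasi-likelihood test, which estimates the spread between samples. For DBP against DMSO it called 0 members and 0 of all positions. At an unadjusted p under 0.05 by that test there were 14 members (1.06%) and 373 positions (1.0%). Both shares are below the 0.05 that the threshold gives without any difference. The edgeR test was therefore conservative here, and its 0 calls cannot decide about the 4. Logistic regression went the other way, with 249 members (18.8%) and 3639 positions (9.78%) at an unadjusted p under 0.05. That method takes read counting as its only error, so its q-values leave out the spread between samples. Without DBP 1 no member was called by logistic regression, and without DMSO 1 there were 7. With coverage scaled to the highest median, a step of the study's own methods, 30 members and 90 positions were called.

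Differences among all 4 groups were tested with edgeR's quasi-likelihood F test. At an adjusted p under 0.05, 12 of all positions were called, or 0.0322%, and 0 members. At an unadjusted p under 0.05 there were 73 members (5.52%) and 1816 positions (4.88%). The values tested are those whose range chose the members, so the members' counts cannot be read as independent of that choice. Logistic regression, which takes read counting as the only error, called 783 members (59.2%) and 11144 positions (29.9%) after adjustment at the same threshold. Of the unselected intermediate positions it called 43.0%. The members with the smallest p were at Sfpi1, Cdca7, Krt79, Adra1b and Ermap. In an intron of Sfpi1, which encodes the blood cell transcription factor PU.1, the levels were 72, 71.4 and 50% in DMSO, 90.6, 70.6 and 90% in DBP, 56, 26.6 and 55.8% in DBP_agent and 100, 100 and 100% in DBP_BR_extract. The 3 BR extract samples lay above all others, on 10 to 19 reads, and the adjusted p was 0.335 by edgeR. In the promoter of Krt79, an epithelial keratin, DBP_agent read 76.7, 73.1 and 39.7% and the other 9 samples 88.5 to 100%, with an adjusted p of 0.518 by edgeR. In an exon of Adra1b, the alpha-1B adrenergic receptor, the BR extract samples read 47.2, 64 and 25.8% and the others 0 to 20%, with an adjusted p of 0.542 by edgeR. The cytosine nearest to Cdca7 also had its 3 BR extract samples highest, at 95.2 to 100%, with an adjusted p of 0.494 by edgeR. These 4 patterns followed the groups in the samples at hand but did not pass the test.

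The selected cytosines lay outside promoters more often than the covered positions as a whole. A promoter, here within 1000 bp of a protein-coding transcription start, held 27.1% of them against 54.2% of all positions and 36.5% of unselected intermediate positions. Exons held 18.3% (11.8 and 11.9%), introns 27.8% (15.2 and 23.7%) and the space between genes 26.9% (18.8 and 27.9%). They lay in or at the start of 739 genes. The median number of CpGs within 100 bp on either side was 7, as at unselected intermediate positions, and 13 over all positions. Among intermediate positions the share selected was 18.1% in exons, 15.5% in introns, 12.6% between genes and 10.4% in promoters. It varied little between chromosomes, from 2.49% of all positions on chromosome 16 to 4.12% on chromosome 5.

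Depth and fragment length moved with the share selected. Among intermediate positions whose shallowest sample had 10 or 11 reads 20.1% were selected, and among those with at least 20 reads in all samples 4.0%. By the length of the MspI fragment in mm9 the share was 8.12% under 180 bp, 11.8% from 180 to under 200 bp, 13.9% from 200 to under 220 bp and 20.4% at 220 bp or more. The median number of reads was 41 to 47 in these 4 classes, which does not show the depth of single samples. Among the selected cytosines, DBP_BR_extract 1 had 278 reads at Arrdc1 (fragment of 155 bp) and 194 at Prox1 (162 bp). It had 11 reads at Cdca7 (252 bp) and 10 at Id1 (255 bp), but also only 16 at Sulf2 (71 bp). How the depth of that sample changed with fragment length was not tested. Of the members 46% were at a CCGG site, beside 65.9% of unselected intermediate positions and 29.7% of all positions. The part of depth, fragment length and position in the read in these ranges was not tested.

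**Figure D4:**
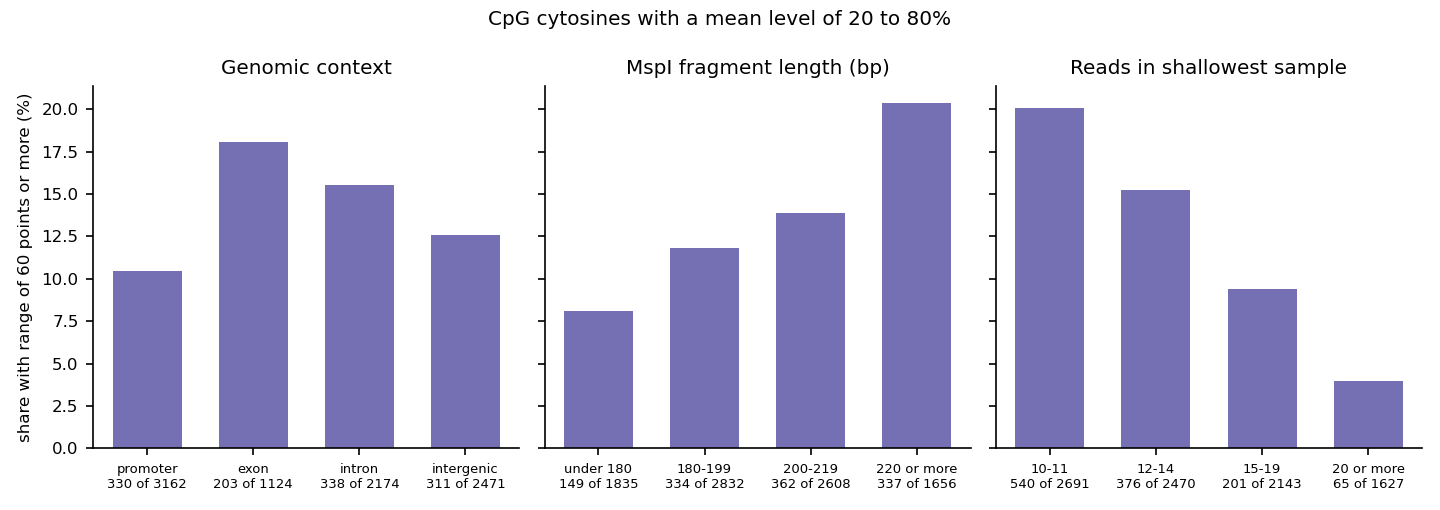
Share in percent of CpG cytosines with a mean level of 20 to 80% that had a range of 60 points or more, by genomic context (left), length of the MspI fragment in bp (middle) and number of reads in the shallowest of the 12 samples (right), with counts under each bar. The share rises from 8.12 to 20.4% with fragment length and falls from 20.1 to 4.0% with depth.

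Imprinted genes were the listed group with the largest share of members. Of 130 covered cytosines assigned to 20 imprinted genes, 23 (17.7%) met the rule, beside 3.55% of all positions, and of the 73 at an intermediate level 22 (30.1%) did, beside 13.2% of all intermediate ones. They lay on 8 fragment ends at 6 genes, and 9 were those of Igf2r on a single end. Gnas, which encodes the stimulatory G protein alpha subunit and imprinted transcripts, held 9 more in 3 regions on chromosome 2. In the first, an intron at 174120995 to 174121033, the cytosine at 174121013 read 61.8, 58.3 and 45.5% in DMSO, 37.8, 36.8 and 91.7% in DBP, 58.9, 26.2 and 27.6% in DBP_agent and 9.09, 25 and 13.9% in DBP_BR_extract. The BR extract samples were the lowest 3 of 12 and DBP 3 the highest, and group means made up 51.7% of the variance.

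In the second Gnas region, an exon at 174124643 to 174124687, the first cytosine was high in 11 samples (43.8 to 92.9%) and 8.33% in DBP_BR_extract 1, while at the other two DBP_agent 3 was highest at 61.5 and 64.1% and DBP_BR_extract 1 read 0%. In the third, at 174124809 to 174124845 on the opposite strand, DBP_agent 3 read 83.3% on 48 reads at all 3 cytosines, DBP 2 16 to 16.7% and DBP_BR_extract 1 40% on 10 reads. The lowest sample was DBP_BR_extract 1 in the first 2 regions and DBP 2 in the third, and the highest was DBP 3 in the first and DBP_agent 3 at 5 of the 6 cytosines of the others. Grb10, an imprinted adaptor that restrains insulin signalling, had 2 members in its promoter. At chr11:11926156 they read 38.5, 44.1 and 11.1% in DMSO, 57.1, 56.2 and 31.6% in DBP, 41.9, 12.5 and 0% in DBP_agent and 0, 40.4 and 66.7% in DBP_BR_extract. The levels there were spread over the range, with 2 samples at 0%.

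The remaining members of the imprinted list were assigned by the nearest start alone, at Snrpn, Plagl1 and Blcap, and lay 29769 to 86074 bp from it. Near Plagl1, a zinc-finger transcription factor, DBP_BR_extract 2 read 100% on 12 reads and the others 0 to 45.6%. Near Blcap DBP_BR_extract 1 read 26.9% and the others 64 to 93%. In both, 1 sample of the BR extract group stood apart.

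Of 297 cytosines at 31 genes of craniofacial patterning 10 (3.37%) met the rule, a share near that of all positions. They lay at Pax1, Pax3, Pax7, Pax8, Pax9 and Pitx1, which encode developmental transcription factors. In the promoter of Pax1, at chr2:147191479, the levels were 4.08, 0 and 0% in DMSO, 8.7, 21.1 and 5.56% in DBP, 3.76, 2.33 and 2.13% in DBP_agent and 86.7, 0 and 0% in DBP_BR_extract. DBP_BR_extract 1 stood alone, on 15 reads, while in the nearby exon at 147191996 it was the lowest sample with 5.26% and DBP_BR_extract 2 the highest with 70.7%. Pax7, a marker of muscle stem cells, read 60% on 10 reads in DBP_BR_extract 1 and 0 to 4.76% in the other 11 samples. Pax8 read 68.8% in DBP_BR_extract 1 and 0 to 29.8% elsewhere, and the cytosine nearest to Pax3 88.4% in DBP_BR_extract 2 and 6.25 to 46.2% elsewhere. The 2 members in an intron of Pax9, a gene needed for the palate and teeth, were highest in DMSO 3, at 72.7 and 70%. Pitx1, a homeobox factor of the lower jaw and hindlimb, had 3 members on 3 fragment ends with 3 different highest samples.

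Members were also counted at marker genes of the cell types in the tissue, beside the 3.55% of all positions. Skeletal muscle genes had 3 of 44 covered cytosines (6.82%), in Des, Myh4 and Pax7, and the immune list 4 of 33 (12.1%), of which 2 were in Sfpi1 and the others nearest to Itgam and Runx3. Endothelial genes had 1 of 47, or 2.13% (Pecam1), fibroblast genes 1 of 38, or 2.63% (nearest to Col1a1), nerve genes 1 of 11, or 9.09% (Elavl3), and squamous epithelial genes 0 of 25 and fat genes 0 of 8, while salivary gland genes had no covered cytosine. Among intermediate cytosines alone the counts were 2 of 20 for muscle (10%), 4 of 16 for the immune list (25%) and 1 of 7 for nerve (14.3%). They were 1 of 9 for endothelium (11.1%), 1 of 12 for fibroblasts (8.33%), 0 of 6 for squamous epithelium and 0 of 1 for fat. The share over all intermediate positions was 13.2%, and most of these lists were near or below it. The Des promoter, of the muscle intermediate filament desmin, read 72.5% in DBP_agent 2 and 9.68 to 44.2% in the others. In Myh4, a fast myosin heavy chain, DBP_agent 3 read 40% and DBP 1 100%, and 8 of 12 samples were above 80%. Outside the lists of cell types, Hox genes had 1 of 93, in the promoter of Hoxa10, which read 0% in DBP_BR_extract 3 and 60% in DBP 1. Genes of DNA methylation had 1 of 40, in the promoter of Mbd1, a methyl-CpG binding protein, where DBP_agent 3 read 64.4% and DBP_BR_extract 1 0%. Genes of the aryl hydrocarbon receptor pathway and DBP activation had 0 of 13.

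Methylation near the starts of the listed genes, over covered cytosines that were not selected, was also compared between the 12 samples. Skeletal muscle genes had a mean level of 29.5 to 37.4% over the 12 samples, with DBP_BR_extract 1 lowest and DBP_agent 1 highest, squamous epithelial genes 18.3 to 26.9%, the immune list 13.6 to 22.8%, fibroblast genes 5.31 to 12.2% and endothelial genes 4.32 to 9.99%. DBP_BR_extract 1 was the lowest of the 12 samples for skeletal muscle, fibroblast and endothelial genes. Fat genes had 4.0 to 10%, genes of DNA methylation 9.44 to 13.5% and those of the aryl hydrocarbon receptor pathway 1.59 to 4.59%. Imprinted genes had 12.5 to 19.5%, Hox genes 5.19 to 8.19% and craniofacial genes 5.46 to 8.9%, all over 1 to 17 genes per list. Whether the mix of cell types differed between samples was not tested, and the few genes behind each mean limit it.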

How the data were processed

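The authors trimmed 50-base single-end reads with Trim Galore 0.3.3, aligned them to mm9 with Bismark 0.10.1, and deposited for each CpG cytosine and strand the counts of methylated and unmethylated reads, not normalized or deduplicated, and the percent methylated. Libraries were made from 50 ng of DNA with 18 PCR cycles and fragments of 70 to 320 bp. The deposited counts were used here, and the deposited percent only as a check. Positions with at least 10 reads in all 12 samples were kept on each strand separately, so that the 2 strands of a CpG are separate positions. Members, gene lists and tests were chosen with earlier results of these data known. DBP and DMSO were compared by the logistic likelihood ratio test and thresholds of the study's methods, but without their scaling of coverage, merging of strands and upper coverage limit, and the 4 groups by edgeR 4.0.16 in R 4.3.3 with 1 fit over all 12 samples (also used for its DBP against DMSO test), with Benjamini-Hochberg adjustment over all 37218 positions. Both were tested on simulated counts. Other calculations used Python 3.11.15, NumPy 2.4.6 and SciPy 1.17.1. Genes came from GENCODE vM1 on mm9. A cytosine was assigned to the nearest start within 1000 bp, else to the exon or gene that holds it, else to the nearest start.

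Cytosines named were those of the 10 regions with most members, the 8 with the widest gap between the Wilson intervals of the extreme samples, the 5 such near a start, all at genes of the lists, and the 5 with the smallest p in each test. Cytosines of the strand comparison were named for the most alike and most reversed strands, after their values were seen, and those nearest the limit of 60 points as such. Pairs of samples with the same number had correlations of their deviations from group means of -0.030 to 0.018, so the numbers were not taken as pairs.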

Additional observations from a re-analysis of the deposited data

How the results depend on the processing

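The number of positions with the range moved with several settings. With at least 20 reads in all samples it was 77 of only 7093 covered positions (1.09% against 3.55%), at a range of 50 points 3126, at 70 points 534, over the DMSO and DBP samples alone 158, over the agent and BR extract samples alone 864, by the second highest minus the second lowest sample 52, and with 1 sample left out 759 (without DBP_BR_extract 1) to 1303. For DBP against DMSO, the 4 members and 11 positions called became 0 and 0 with edgeR, 13 and 43 at q < 0.05, 30 and 90 with coverage scaled to the highest median, and 1 and 4 at 20 reads, while a difference over 10 points gave 4 and 22. With 1 sample left out there were 0 to 7 members and 2 to 28 positions, the lowest without DBP 1 and the highest without DMSO 1, and 7 positions without DMSO 2. With a replicate block added there were 4 members and 8 positions. Among the 4 groups, 0 members and 12 positions became 783 (59.2%) and 11144 (29.9%) with logistic regression. They became 0 and 7 with a replicate block, 0 and 6 at 20 reads, and 0 and 9 to 14 with 1 sample left out. The same replicate number correlated best in 2 of 12 samples. The share of variance between groups (24.9 to 32.3% over its alternatives) and the difference on the opposite strand (-10.2 to 3.33 points) moved by less than their spread over members. The median correlation with neighbours was 0.376 to 0.413 with 1 sample left out and -0.0017 with neighbours on the opposite strand or on another fragment end. Members with 20 reads in all samples gave no value on the opposite strand. The cause of these changes was not tested. The alternatives on 6 of the samples, second extremes, fragment ends and 5 reads of the opposite strand were chosen after seeing the data. About 40.2% of the extreme values rested on fewer than 20 reads.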
